A study of Mus musculus with 2 samples.

Results

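The cells described here are AE9a leukemia cells of the spleen that carried little mRNA of cell cycle genes and little mRNA of the mast cell protease gene Cpa3. They were chosen by a rule on measured values. A barcode was eligible with at least 500 detected genes and 2 to 10% of its unique molecular identifiers (UMIs) from mitochondrial genes. It was a low-cycling Cpa3-low cell when Cpa3 was below 3 per 10000 UMIs and when each of 3 cell cycle scores was below 0. The scores were z-scores over all eligible barcodes of log-transformed summed UMIs, for Cdc6, Cdt1, Dtl, Hells, Mcm4, Mcm6 and Ung, for Fbxo5, Rrm2 and histone genes Hist1h1a, Hist1h1b, Hist1h2ae and Hist1h2ap, and for Aspm, Ccnb1, Cdc20, Cenpf, Hmmr, Plk1, Prc1 and Ube2c. Of 13918 eligible barcodes, among 15114 in all, 1826 met the rule.

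The 2 libraries came from mouse recipients of fetal liver cells that were Usp18+/f UBCER-Cre and had been transduced with a retrovirus for AE9a, a truncated form of the AML1-ETO fusion protein, together with GFP. After the mice had become sick they were injected with oil (genotype given as Usp18+/f) or tamoxifen (genotype given as Usp18+/Δ), and 3 days after the first injection GFP+ Lin- c-Kit+ splenocytes were sorted and pooled from 3 mice per group, with 8000 cells targeted in each. Cells of both groups carried the Cre, the floxed allele at the start and the AE9a transgene. Deletion was not limited to a cell type, and tamoxifen itself cannot be told apart from the loss of the allele. Ages of the mice are not given in the labels. Each group was 1 library, so no difference between the groups was tested. Intervals in parentheses are 95% counting intervals, which cover counting error only and not the spread between mice. Paired values are given first for the library labelled Usp18+/f and then for the library labelled Usp18+/Δ. Levels are in CPM: UMIs were summed over the cells of a class and scaled to a total of 1000000. Log2 ratios between the libraries are of Usp18+/Δ to Usp18+/f, as labelled.

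Dividing cells switch on genes for DNA replication in S phase and genes for chromosome condensation and the spindle in G2 and M phase, and cells that rest in G1 or leave the cycle keep these genes low while proteins such as p27, p130 and the BTG family hold division back. In leukemia, cells outside the cycle are of interest because many drugs act on dividing cells. USP18 removes the ubiquitin-like protein ISG15 from other proteins and, at the interferon receptor, dampens type I interferon signaling, so interferon-stimulated genes are the usual readout of its loss.

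In the library labelled Usp18+/f, 755 of 6573 eligible barcodes were low-cycling Cpa3-low cells, or 11.5% (10.7 to 12.3). In the library labelled Usp18+/Δ they were 1071 of 7345, or 14.6% (13.8 to 15.4). The share was thus higher by 0.34 on the log2 scale (0.22 to 0.47). Of the Cpa3-low barcodes alone, they made up 12.8% and 17.5%. Low-cycling cells with Cpa3 at or above 3 went from 4.97% to 10.5%, so the low-cycling Cpa3-low cells were 69.8% and 58.2% of all low-cycling cells. The size of the difference in share depended on the eligibility rule. It was 1.49 among barcodes with 2 to 5% mitochondrial UMIs, where the cells numbered 47 and 121, and 0.16 when the scores were standardized within each library. Above 10% mitochondrial UMIs, where the rule does not reach, barcodes with the same low scores were 20.5% and 20.7%.

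These cells had a median of 6324 and 6099 UMIs, against 9766 and 9328 in the cycling Cpa3-low cells, defined as Cpa3-low barcodes with any score at 0 or above. A low score is easier to reach with few UMIs. When every barcode was thinned to 3000 UMIs before scoring, the share differed by 0.22 on the log2 scale. The summed UMIs of the low-cycling Cpa3-low cells were 4859388 and 6729509. A gene with no UMI in them could thus lie at up to 0.617 and 0.446 CPM, the level of 3 UMIs. Over all barcodes the libraries held 63690481 and 65146263 UMIs. Between the libraries, 15 barcode sequences were shared, and 4 of the low-cycling Cpa3-low cells carried 1 of them.

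Usp18, the targeted gene, lies on the plus strand at chr6:121245906-121270917 (GRCm38) and did not follow its label. It is itself switched on by interferon and belongs to the interferon list used here. In the low-cycling Cpa3-low cells it was at 9.05 CPM (6.58 to 12.2), from 44 UMIs in 40 cells, and at 37.4 CPM (33.0 to 42.4), from 252 UMIs in 179 cells. It was higher in the library labelled Usp18+/Δ by 2.05 on the log2 scale (1.58 to 2.54), and by 1.96 in the cycling Cpa3-low cells. Which exons the deletion removes is not given in the sources used here, so tags from the 3′ end may not report it, and the deletion itself was not checked. Isg15, with a log2 ratio of 2.78, and the interferon list, with a median of 1.16, were higher in the same library. Kit, the receptor used in the sort, was at 122 and 114 CPM, with a difference of -0.10 (-0.25 to 0.06). Cd34, a surface marker of progenitor cells, had 44 and 103 UMIs, or 9.05 and 15.3 CPM, a difference of 0.76 (0.23 to 1.30).

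Few UMIs of the scored genes were left in the chosen cells, as the rule requires. The score limits corresponded to 4.21, 3.82 and 3.41 UMIs per 10000 for the replication, histone and mitosis sets. No UMI of any of the 3 sets was seen in 31.3% and 36.2% of the cells, and no UMI of Cpa3 in 77.5% and 75.8%. Cells whose highest score lay between -0.1 and 0 numbered 71 and 88, with Mki67, a marker of proliferating cells that is not in the scores, at 69.2 and 80.6 CPM. The 79 and 77 Cpa3-low cells just outside, with a highest score between 0 and 0.1, had Mki67 at 87.4 and 90.5 CPM. Across the same limit Pcna was at 54.5 and 80.6 CPM inside and 106 and 79.4 CPM outside, and Top2a, with 4 to 10 UMIs, at 14.7 and 7.17 CPM inside and 13.4 and 18.5 CPM outside, so the step at the limit differed between genes and libraries. Low-cycling Cpa3-low cells with every score below -1, 241 and 394 of them, had Mki67 at 16.8 and 23.7 CPM. At the Cpa3 limit, 47 and 101 low-cycling cells had 2 to 3 per 10000 UMIs and 37 and 74 had 3 to 4, a difference between a median of 1 and 2 Cpa3 UMIs.

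**Figure D1:**
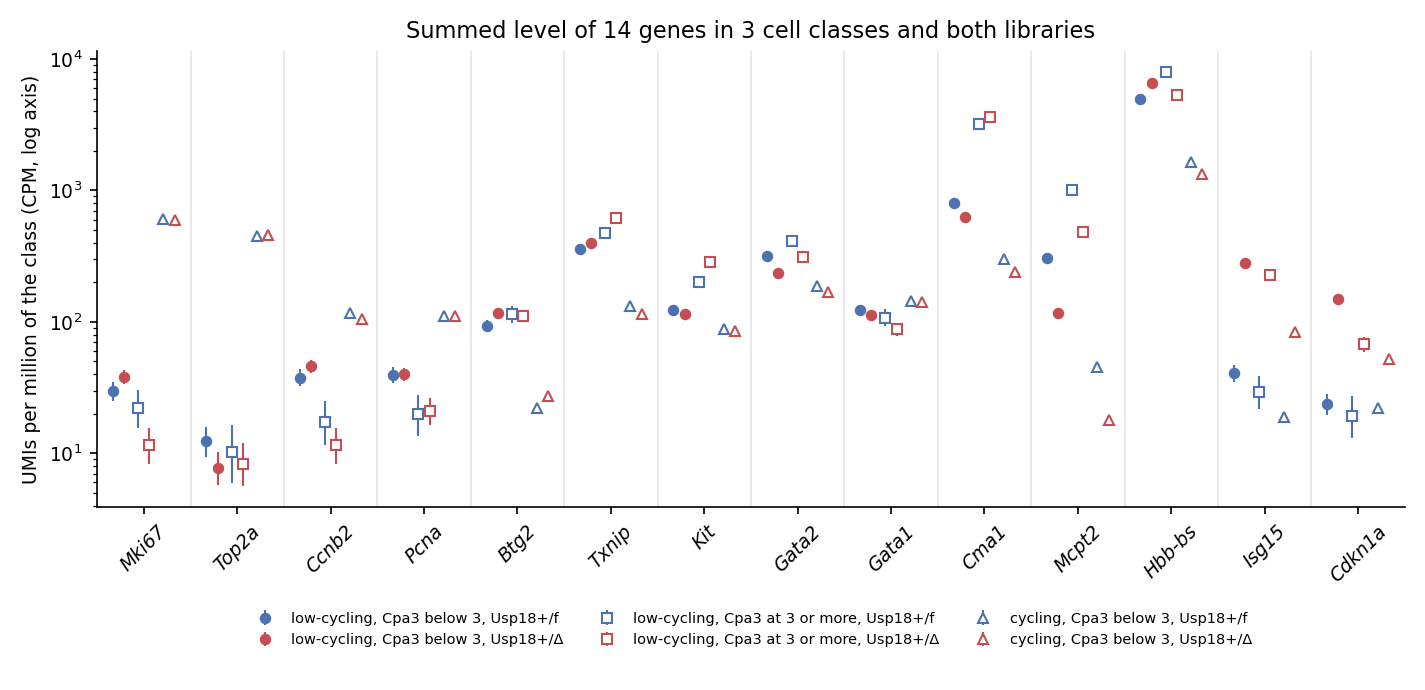
Levels of 14 genes in CPM (vertical axis, log scale) in low-cycling Cpa3-low cells (filled circles), low-cycling cells with Cpa3 at or above 3 (squares) and cycling Cpa3-low cells (triangles), with the library labelled Usp18+/f in blue, the library labelled Usp18+/Δ in red, and bars for 95% Poisson counting intervals. Mki67 and Top2a lie far below the cycling cells, at 29.8 and 37.9 against 604 and 594 CPM for Mki67, while Isg15 and Cdkn1a differ between the libraries.

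The label was checked on cell cycle genes that the rule did not name. All comparisons with the cycling Cpa3-low cells describe how the cells were chosen, since genes of the cycle move together. Of 5973 genes, 11.8% were at least 1.5-fold lower than in the cycling Cpa3-low cells in both libraries and 7.05% at least 1.5-fold higher. All 26 genes of a G2 and M phase list were lower, with a median log2 ratio of -4.35 and -3.92. Mki67 was at 29.8 CPM from 145 UMIs and 37.9 CPM from 255 UMIs, against 604 and 594 CPM in the cycling cells. After thinning to 3000 UMIs, 9.17% and 9.03% of the low-cycling Cpa3-low cells still had a Mki67 UMI (15.8% and 15.5% unthinned), against 61.2% and 60.1% of cycling cells (79.0% and 78.5% unthinned). Top2a, the topoisomerase that untangles chromosomes, was at 12.3 and 7.73 against 450 and 459 CPM. Cdk1, the kinase that drives entry into mitosis, was at 6.79 and 4.61 against 166 and 142 CPM. Nusap1, a spindle protein with 8 and 13 UMIs, had log2 ratios of -6.23 and -5.88. Ccnb2, a mitotic cyclin, was less depleted, at 37.7 and 45.8 against 116 and 105 CPM.

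Promoters of many such genes hold the cell cycle genes homology region, TTTGAA, which is bound by the complexes that keep them silent outside of G2 and M phase. The windows of Cdk1 and Top2a, 250 bases before to 50 bases after the RefSeq gene start in GRCm38.p6, are shown as those of well-known G2 and M genes that were among the 10 lowest against the cycling cells. Both lie on the minus strand, at chr10:69352863-69353162 and chr11:99024140-99024439, and are written 5′ to 3′ on that strand. Capitals mark TTTGAA, or TTCAAA where the motif lies on the other strand.
Cdk1: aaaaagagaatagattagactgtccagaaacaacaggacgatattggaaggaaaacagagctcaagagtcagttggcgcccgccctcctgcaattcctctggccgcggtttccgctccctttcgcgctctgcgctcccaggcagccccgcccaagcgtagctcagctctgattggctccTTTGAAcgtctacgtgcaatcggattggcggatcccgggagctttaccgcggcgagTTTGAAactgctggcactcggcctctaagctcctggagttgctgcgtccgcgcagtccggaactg
Top2a: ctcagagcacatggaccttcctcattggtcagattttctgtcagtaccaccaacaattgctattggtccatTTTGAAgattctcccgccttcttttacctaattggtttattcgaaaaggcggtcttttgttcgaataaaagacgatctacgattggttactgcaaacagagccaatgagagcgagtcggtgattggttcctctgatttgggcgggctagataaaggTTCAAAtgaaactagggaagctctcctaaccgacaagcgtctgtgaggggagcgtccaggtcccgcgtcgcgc
In Cdk1 the motif starts at 71 and 15 bases before the gene start, and in Top2a at 179 bases before it and, on the other strand, at 23 bases before it. On either strand, TTTGAA was found in 14 of the 21 listed G2 and M genes that had a window (66.7%), and in 20.2% of the windows of 27025 genes. A match of 6 letters is a description of the window and not a bound site.

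All 20 genes of S phase outside the rule were lower too, 19 of them by at least 1.5-fold, with medians of -1.80 and -1.93. In each library, 12.9% and 14.8% of all genes at 20 CPM were as much lower. Pcna, the sliding clamp of DNA polymerase, was at 39.5 and 39.8 against 111 and 111 CPM. Of 13 histone genes outside the rule, 11 were lower, 10 of them by at least 1.5-fold, with medians of -1.79 and -1.92. Hist1h2bc (85.2 and 65.8 against 30.9 and 29.7 CPM) and Hist1h1c (245 and 206 against 121 and 123 CPM) were higher. Among 9 genes for G1 cyclins and their partners the median was -0.83 and -0.61, but the cyclin D genes Ccnd2 (401 and 412 against 326 and 333 CPM) and Ccnd3 (140 and 153 against 107 and 106 CPM) were slightly higher. Their kinase gene Cdk4 was lower, at 88.1 and 86.8 against 170 and 169 CPM. The cells thus kept cyclin D mRNA at about the level of cycling cells while replication and mitosis genes were low.

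Of 14 genes in a list of cell cycle inhibitors and pocket proteins, 7 and 8 were at least 1.5-fold higher than in the cycling cells and 1 and 2 at least 1.5-fold lower, with medians of 0.56 and 0.74. Of all genes at 20 CPM, 8.87% and 9.29% were as much higher. Over the low-cycling cells with more Cpa3 the medians were 0.01 and -0.13. Btg2, an antiproliferative cofactor of mRNA deadenylation, was at 93.6 and 117 against 22.0 and 27.3 CPM, log2 ratios of 2.09 and 2.11. Txnip, which limits glucose uptake and thioredoxin, was at 355 and 397 against 133 and 115 CPM. Cdkn1b, which encodes the CDK inhibitor p27, was at 74.9 and 70.3 against 39.6 and 37.7 CPM. The pocket protein genes moved apart. Rbl2, for the p130 of quiescent cells, was at 65.9 and 69.8 against 41.5 and 43.5 CPM, whereas Rbl1, for the p107 of cycling cells, was at 19.5 and 16.6 against 51.1 and 50.4 CPM. Genes with the largest ratios outside the lists included Mxd4, an antagonist of MYC (123 and 123 against 28.7 and 28.3 CPM), Ypel3, a growth-suppressing gene (93.2 and 80.8 against 15.5 and 13.3 CPM), and the noncoding RNA Neat1 of nuclear paraspeckles (805 and 890 against 207 and 213 CPM).

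Genes for making ribosomes were lower, but the mRNA of the ribosomal proteins was not. All 16 ribosome biogenesis genes were below the cycling cells, 10 and 13 of them by at least 1.5-fold, with medians of -0.77 and -1.004. Of all genes at 20 CPM, 12.9% and 14.8% were as much lower. Ncl, the nucleolar protein nucleolin, was at 1052 and 1076 against 2222 and 2406 CPM, and Nolc1, a nucleolar scaffold, at 60.5 and 56.9 against 146 and 169 CPM. After thinning to 3000 UMIs, a cell held a mean of 10.0 and 10.5 UMIs of this list, against 18.1 and 19.9 in cycling cells. Ribosomal protein genes took 26.9% and 27.9% of UMIs, against 25.9% and 26.1%. Those log2 ratios of 0.06 and 0.09 are small, and they became smaller when each cell was weighted alike.

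UMIs of mast cell and erythroid genes were both found in the low-cycling Cpa3-low cells. No cell class without these genes was sampled, so the share that free RNA gives was not measured. The mast cell and basophil list of 12 genes, which includes Cpa3, summed to 3923 and 2948 CPM with every gene detected in both libraries, and the 9 genes above 5 CPM had medians of 0.91 and 0.89 over the cycling cells. Cma1, the chymase of mast cells, was at 805 and 631 against 300 and 238 CPM, and Cd200r3, an activating receptor of mast cells and basophils, at 342 and 315 against 95.5 and 85.6 CPM. A Cd200r3 UMI was seen in 59.6% and 55.1% of cells thinned to 3000 UMIs (78.9% and 73.6% unthinned), against 24.9% and 21.6% of cycling cells (54.1% and 49.3% unthinned). Serpinb1a, an inhibitor of granule proteases (315 and 106 against 29.7 and 8.89 CPM), and Csf2rb2, a subunit of the IL-3 receptor (132 and 189 against 13.3 and 17.1 CPM), led the genes at 20 CPM or more outside the rule.

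The erythroid list of 13 genes summed to 12867 and 16166 CPM, most of it globin. The 4 globin genes together were at 9447 and 12396 CPM. Hbb-bs, the adult beta globin, was at 4937 and 6604 against 1632 and 1321 CPM. Globin mRNA was uneven: the median cell had 5 and 6 globin UMIs of 3000, the highest 1249 and 1079. Cells with at least 5% globin UMIs were 5.17% and 6.63% of the low-cycling Cpa3-low cells, against 0.427% and 0.456% of cycling cells and 8.26% and 4.16% of the low-cycling cells with more Cpa3. The regulators Gata1 (123 and 114 against 144 and 141 CPM) and Klf1 (144 and 136 against 165 and 147 CPM) lay slightly below the cycling cells. Listed markers of other cells were low apart from Nkg7 and Ccr2. In the neutrophil, B cell and endothelial lists the sums were 0.412 and 1.63, 0.412 and 0.297, and 0.412 and 0.297 CPM. The T and NK cell list, at 8.85 and 27.9 CPM, was Nkg7 but for 1 UMI. The monocyte and macrophage list, at 55.2 and 64.2 CPM, was mostly the chemokine receptor gene Ccr2 at 47.5 and 44.4 CPM. The lists for granulocyte-monocyte progenitors (12.1 and 6.69), dendritic cells (4.12 and 3.27), megakaryocytes (6.59 and 7.73) and eosinophils (3.29 and 5.50 CPM) were low, with no UMI of the granule protease Elane. Of the stem and progenitor genes, Kit and Cd34 were detected at the levels given above, while Flt3, Hoxa9, Meis1 and Mecom had no UMI in either library.

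Low-cycling cells with Cpa3 at or above 3 are the nearest class, and the rule separates them on Cpa3, so the contrast is a description. At least 1.5-fold higher in the low-cycling Cpa3-low cells in both libraries were 1.71% of 5892 genes, and 2.38% were lower. Of the 11 measured genes of the mast cell and basophil list, which includes Cpa3, 7 and 8 were at least 1.5-fold lower. The shares of all genes at 20 CPM as much lower in each library were 3.72% and 6.53%. Cma1 was at 805 and 631 against 3177 and 3639 CPM, Fcer1a, the alpha chain of the IgE receptor, at 236 and 290 against 779 and 1118 CPM, and Mcpt8, a protease of basophils, at 3.70 and 3.12 against 56.9 and 27.9 CPM. Tyrobp, an adaptor of activating receptors in myeloid and NK cells, was at 7.82 and 12.6 against 37.1 and 50.6 CPM. Kit was lower as well, with log2 ratios of -0.72 and -1.31. Cd34 was at 9.05 against 9.58 CPM in the library labelled Usp18+/f and at 15.3 against 57.2 CPM in the library labelled Usp18+/Δ, ratios of -0.08 and -1.90.

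The S phase list had medians of 0.77 and 0.88 over the low-cycling cells with more Cpa3, with 11 and 12 of 17 genes at least 1.5-fold higher and none lower. Of all genes at 20 CPM, 3.63% and 4.38% were as much higher over that class. Mcm5, a subunit of the replicative helicase, was at 49.8 and 46.4 against 20.4 and 20.1 CPM, and Rrm1, of ribonucleotide reductase, at 24.5 and 36.3 against 8.98 and 13.5 CPM. Of 17 p53 targets, 3 and 10 were at least 1.5-fold higher, beside the same 3.63% and 4.38% of all genes, with medians of 0.24 and 0.65. Ribosome biogenesis genes had medians of 0.43 and 0.56, and Car2, a carbonic anhydrase of red cells, was at 799 and 846 against 361 and 290 CPM. On the S phase and ribosome biogenesis lists the low-cycling Cpa3-low cells lay between the low-cycling cells with more Cpa3 and the cycling cells. Median depths differed, at 5030 and 4363 UMIs in the class with more Cpa3, and the part of depth was not tested.

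The comparison of the labelled groups asks what partial loss of Usp18 under tamoxifen changes in these cells. Most genes hardly differed: 83.5% of 5822 genes lay within 0.25 on the log2 scale, and the median was -0.02. In the library labelled Usp18+/Δ, 90 genes (1.55%) were at least 1.5-fold higher and 34 (0.584%) at least 1.5-fold lower. These counts were 773 and 838 in the 47 and 121 cells with 2 to 5% mitochondrial UMIs, and the higher genes were 291 at a minimum of 5 CPM and 32 at 50 CPM. Of the 90, 27 were in the interferon list, 10 in the p53 target list and 53 in neither. The same fold was passed by 35 of the 90 in the cycling Cpa3-low cells and by 13 of the 34 lower genes. Of 5954 genes at 20 CPM in the cycling Cpa3-low cells, 20 (0.336%) were at least 1.5-fold higher and 10 (0.168%) lower. The 35 and the 13 thus include genes below that level there. These classes come from the same pools of mice, so they are not independent of each other.

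Interferon-stimulated genes led the higher genes. Of 42 listed genes 41 were in the matrix, and 34 reached a mean of 5 CPM in the low-cycling Cpa3-low cells, a limit that genes high in either library pass. Of these, 30 were at least 1.5-fold higher in the library labelled Usp18+/Δ and none lower, beside 1.55% and 0.584% of all genes at 20 CPM. Their median log2 ratio was 1.16 (0.93 to 1.41), beside -0.02 for all 8895 genes at 5 CPM. The median was 1.03 in the cycling Cpa3-low cells, with 24 of 34 higher, and 1.29 in the low-cycling cells with more Cpa3. Isg15 was at 40.5 CPM (35.1 to 46.6), from 197 UMIs in 143 cells, and at 279 CPM (267 to 292), from 1880 UMIs in 480 cells, a log2 ratio of 2.78 (2.57 to 3.00). In the cycling Cpa3-low cells it went from 18.8 to 83.2 CPM, a ratio of 2.14 (2.04 to 2.24). Isg15 was thus higher in the low-cycling cells in either library, as was the list, with medians of 0.74 and 0.80 over the cycling cells but -0.02 and -0.11 over the low-cycling cells with more Cpa3. An Isg15 UMI was seen in 10.7% and 31.1% of cells thinned to 3000 UMIs (18.9% and 44.8% unthinned), against 4.77% and 15.4% of cycling cells (14.0% and 32.5% unthinned).

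Other members followed with smaller counts. Oasl2, an antiviral gene of the oligoadenylate synthetase family, was at 3.70 and 37.7 CPM, a ratio of 3.35 (2.66 to 4.13). Irf7, the regulator that amplifies interferon production, was at 11.3 and 57.8 CPM, and Rtp4, a membrane trafficking factor, at 7.41 and 57.4 CPM. Rnf213, a large ubiquitin ligase, was at 44.9 and 164 CPM with a ratio of 1.87, against 1.29 in the cycling cells. Psmb8 and Psmb9, subunits of the immunoproteasome, did not follow, with 0.12 (-0.01 to 0.26) and -0.14 (-0.29 to 0.01). Of listed genes below 5 CPM, Mx1 had 0 and 48 UMIs, and Ifit3 and Rsad2 had 0 and 6 UMIs each. Per cell, the list took a median of 4 and 8 of 3000 UMIs, against 3 and 5 in cycling cells, and 3.42% and 32.9% of cells had more than 10, against 0.710% and 8.72%.

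Interferon-stimulated genes are switched on by the ISGF3 complex at response elements whose core was searched as GAAA, any 2 bases and GAAA. The windows of Isg15 and Oas3 are shown as genes of the list with a match, Oas3 being another oligoadenylate synthetase, at 34.2 and 108 CPM (ratio 1.66). They lie on the minus strand of GRCm38.p6 at chr4:156200769-156201068 and chr5:120777610-120777909, 250 bases before to 50 bases after the RefSeq gene start. Capitals mark the matches, which overlap in Isg15.
Isg15: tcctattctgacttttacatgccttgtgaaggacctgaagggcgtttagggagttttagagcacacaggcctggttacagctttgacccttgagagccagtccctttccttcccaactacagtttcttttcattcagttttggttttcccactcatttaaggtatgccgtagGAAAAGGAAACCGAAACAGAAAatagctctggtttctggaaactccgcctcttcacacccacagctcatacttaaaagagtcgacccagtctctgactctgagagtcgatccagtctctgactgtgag
Oas3: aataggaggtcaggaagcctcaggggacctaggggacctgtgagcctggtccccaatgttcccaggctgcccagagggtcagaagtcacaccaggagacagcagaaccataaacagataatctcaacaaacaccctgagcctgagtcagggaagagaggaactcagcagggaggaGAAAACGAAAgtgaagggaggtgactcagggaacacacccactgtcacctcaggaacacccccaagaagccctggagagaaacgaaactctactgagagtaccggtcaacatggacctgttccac
The 3 matches in Isg15 start at 78, 72 and 66 bases before the gene start and the match in Oas3 at 75 bases before it. On either strand, this core was found in 11 of the 26 listed interferon genes with a window (42.3%), among them Stat2, Ifit1 and Bst2, in none of 13 p53 targets with a window, and in 3.99% of 27025 windows. Of the 10 genes with the highest ratios between the libraries, 6 had a window, and Isg15 was the only match among them.

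**Figure D2:**
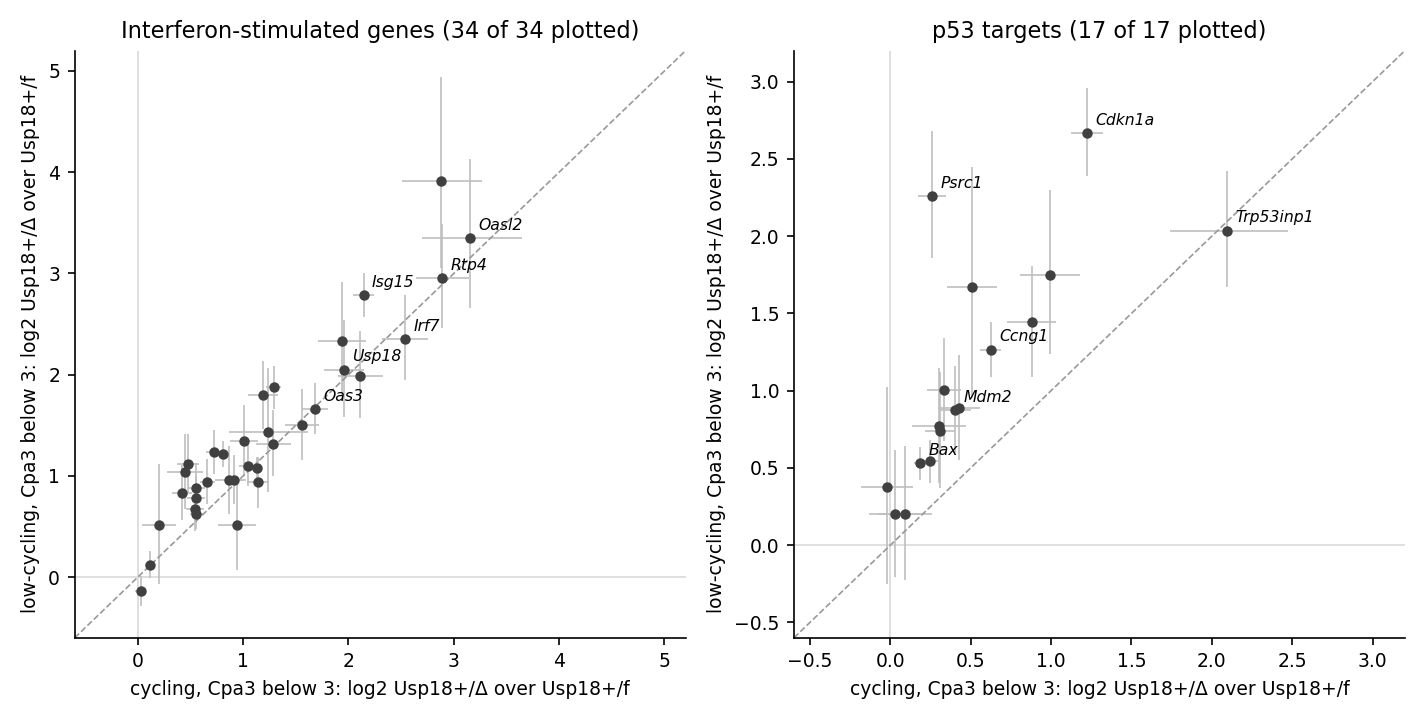
Log2 ratio between the libraries (Usp18+/Δ to Usp18+/f, as labelled) in low-cycling Cpa3-low cells (vertical axis) against the same ratio in cycling Cpa3-low cells (horizontal axis), 1 point per gene of the interferon list (left) and the p53 target list (right), with 95% counting intervals and a dashed line of equal ratios. Of 34 interferon genes 26 lie above the line, and of 17 p53 targets 16, with Cdkn1a at 2.67 against 1.22.

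Targets of p53, the transcription factor that responds to DNA damage and other stress, were also higher. Of 25 listed genes 17 reached 5 CPM. In the library labelled Usp18+/Δ, 12 of them were at least 1.5-fold higher, beside 1.55% of all genes at 20 CPM. Their median was 0.89 (0.60 to 1.23), beside -0.02 for all genes at 5 CPM. The medians were 0.33 in the cycling Cpa3-low cells, with 5 of 17 higher, and 0.53 in the low-cycling cells with more Cpa3, with 7 of 17 higher. Of all genes at 20 CPM, 0.336% and 3.11% were as much higher in those classes. Cdkn1a, for the CDK inhibitor p21, was at 23.7 CPM (19.5 to 28.4), from 115 UMIs in 70 cells, and at 150 CPM (141 to 160), from 1011 UMIs in 372 cells. The ratio was 2.67 (2.39 to 2.96), against 1.22 (1.12 to 1.32) in the cycling cells, where it went from 22.2 to 51.7 CPM. In the library labelled Usp18+/f, Cdkn1a was thus no higher in the low-cycling Cpa3-low cells than in the cycling cells (log2 0.09), and in the library labelled Usp18+/Δ it was higher by 1.54. After thinning to 3000 UMIs, 4.79% and 23.4% of cells had a Cdkn1a UMI (9.27% and 34.7% unthinned), against 6.17% and 11.9% of cycling cells (16.2% and 26.1% unthinned).

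Several targets showed the same order. Psrc1, a spindle-associated p53 target, was at 12.1 and 58.1 CPM with a ratio of 2.26 (1.86 to 2.68), against 0.26 (0.17 to 0.35) in the cycling cells. Ccng1, the p53-induced cyclin G1, was at 69.4 and 167 CPM with 1.26 (1.09 to 1.44), against 0.62 (0.56 to 0.69). Zmat3, an RNA-binding target, was at 17.3 and 47.0 CPM with 1.44, against 0.88. Trp53inp1, a cofactor of p53, was at 14.8 and 60.8 CPM with 2.04, about the 2.10 of the cycling cells. Mdm2, the ubiquitin ligase that degrades p53, was at 30.5 and 55.9 CPM (0.88), and the proapoptotic genes Bax and Bbc3 had ratios of 0.53 and 0.77. Sesn1 and Xpc, with 0.20 each, were not separated from 0 by their intervals. Of the inhibitor list, Cdkn1a was the only gene 1.5-fold higher between the libraries, while Btg2 (0.33), Cdkn1b (-0.09) and Rbl2 (0.08) had small ratios. Klf2, described with the lower genes, was the only gene of the list at least 1.5-fold lower.

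**Figure D3:**
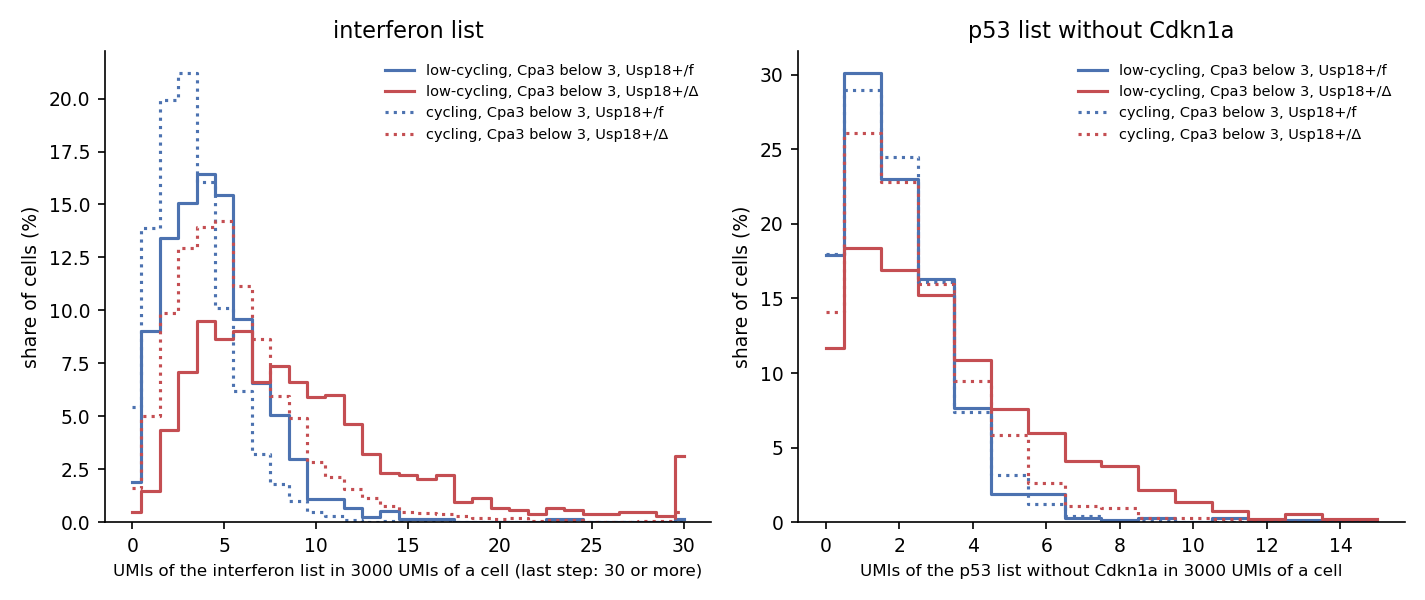
Share of cells in percent (vertical axis) by the number of UMIs from the interferon list or from the p53 target list without Cdkn1a among 3000 UMIs per cell (horizontal axis), with low-cycling Cpa3-low cells as solid lines, cycling Cpa3-low cells as dotted lines, the library labelled Usp18+/f in blue and the library labelled Usp18+/Δ in red (the last step of the interferon list pools 30 or more). The median for the interferon list is 4 and 8 UMIs in low-cycling Cpa3-low cells and 3 and 5 in cycling cells, and the p53 list has medians of 2 and 3 against 2 and 2.

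Cells with Cdkn1a mRNA also held more mRNA of other p53 targets. In the library labelled Usp18+/Δ, the 241 thinned cells with a Cdkn1a UMI had a mean of 5.41 UMIs from the other p53 targets, against 2.69 in the 789 without. Their interferon-list means were 12.2 and 9.29 UMIs and their globin means 73.1 and 28.5 UMIs. In the library labelled Usp18+/f only 35 cells had a Cdkn1a UMI, with means of 3.26 against 1.82 for the p53 targets and 4.31 against 4.56 for the interferon list. Cells with an Isg15 UMI in the library labelled Usp18+/Δ had a globin mean of 67.9, against 25.8 without. For Cdkn1a in the library labelled Usp18+/f, the globin means were 38.5 and 30.6, while unthinned Hbb-bs went the other way, at 4474 CPM in cells with a Cdkn1a UMI and 4986 CPM in the rest. In cells with less than 5% globin UMIs the ratios between the libraries were 2.67 for Isg15 and 2.75 for Cdkn1a.

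The S phase, G2 and M and G1 lists had medians near 0 between the libraries within the low-cycling Cpa3-low cells, at -0.01, 0.04 and -0.05. The histone list had a median of -0.25, with 9 of 10 genes below 0 and 1 at least 1.5-fold lower. No S phase gene passed 1.5-fold, and 2 G2 and M genes passed it in each direction. Myc, the growth regulator, was lower, at 134 and 88.6 CPM with -0.60 (-0.76 to -0.44), against -0.12 in the cycling cells. Gata2, a regulator of mast cell and stem cell genes, was at 319 and 234 CPM, a ratio of -0.45 (-0.55 to -0.35). Among 12 fusion partner and myeloid regulator genes only Runx1t1, the mouse gene of the ETO partner, passed 1.5-fold, at 26.8 and 42.6 CPM (0.67). At 5 CPM, none of 7 inflammasome and pyroptosis genes passed it in either direction. The shares of all genes at 20 CPM, 1.55% and 0.584%, would also give such a count. Gsdmd, the pore-forming gasdermin D, was at 38.5 and 41.2 CPM. Adhesion and homing genes had a median of 0.11, with 6 of 10 measured above 5 CPM.

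Heat shock and mast cell protease genes were among the 10 lowest ratios. Hspa1a and Hspa1b, near-identical genes for the inducible HSP70 whose reads can be split between them, summed to 238 and 35.1 CPM. They were at 54.9 and 7.43 CPM (ratio -2.89) and at 183 and 27.6 CPM (ratio -2.73), and in the cycling cells the ratios were -2.87 and -1.99. In the list of heat shock and immediate early genes, 6 of 13 at 5 CPM were at least 1.5-fold lower and none higher. Of all genes at 20 CPM, 0.584% were as much lower, among them 4 of this list. The list had a median of -0.37 in these cells and -0.46 in the cycling cells. Jun, which cells induce within minutes of stress, was at 35.0 and 19.2 CPM. Genes of this list are known to respond to the handling of cells as well as to stress in the animal.

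The mast cell and basophil list had a median of -0.16 between the libraries, with 2 of 9 genes at least 1.5-fold lower, 2 above 0 and Fcer1a at 0.30 (0.19 to 0.40). Of all genes at 20 CPM, 0.584% were at least 1.5-fold lower. Mcpt1, a mucosal mast cell protease, was at 533 CPM (513 to 554), from 2592 UMIs in 212 cells, and at 85.3 CPM (78.5 to 92.6), from 574 UMIs in 143 cells, a ratio of -2.64 (-2.78 to -2.51). Mcpt2 was at 308 and 117 CPM with -1.40, Mcpt4 at 30.7 and 10.1 CPM with -1.60, and Serpinb1a at 315 and 106 CPM with -1.57. Ahnak, a very large scaffold protein, was at 52.7 CPM from 256 UMIs in 74 cells and at 7.28 CPM from 49 UMIs in 29 cells (-2.86). S100a6, a calcium-binding protein, was at 290 and 149 CPM with -0.96, against -0.10 in the cycling cells. Klf2, a factor of quiescent lymphoid cells, had 77 UMIs in 16 cells and 2 UMIs in 2 cells, a ratio of -5.74 (-8.81 to -3.83). For Klf2 the level thus rests on a few cells.

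Cells rich in these proteases were fewer in the library labelled Usp18+/Δ. Those with Mcpt1 and Mcpt2 together at 10 or more per 10000 UMIs, a limit set after these values were seen, were 112 (14.8%) and 54 (5.04%), a log2 ratio of shares of -1.56 (-2.00 to -1.11). By this definition they hold most UMIs of both genes, so how far the ratios of Mcpt1 and Mcpt2 depend on them is fixed by it. Within each library they also held more Ahnak (log2 3.50 and 3.71 over the other low-cycling Cpa3-low cells), S100a6 (3.81 and 2.05), Serpinb1a (3.28 and 2.40), Cma1 (2.82 and 2.10) and Hba-a1 globin (1.87 and 1.80), and 65 of the 77 Klf2 UMIs of the library labelled Usp18+/f. Their depth was lower, with a median of 5032.5 and 4592 UMIs against 6508 and 6165 in the rest. Without them, the ratio between the libraries was 0.07 (-0.65 to 0.82) for Mcpt4, which had only 27 and 43 UMIs there. It was -0.76 for Serpinb1a and -2.24 for Ahnak, and it changed sign to 0.24 (0.08 to 0.40) for S100a6. Cma1, at -0.35 in all the cells, changed sign to 0.27 (0.19 to 0.35). Without the same cells the ratio was -2.73 for Hspa1a, 2.83 for Isg15 and 3.01 (2.68 to 3.36) for Cdkn1a, the last above its 2.67 in all the cells.

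**Figure D4:**
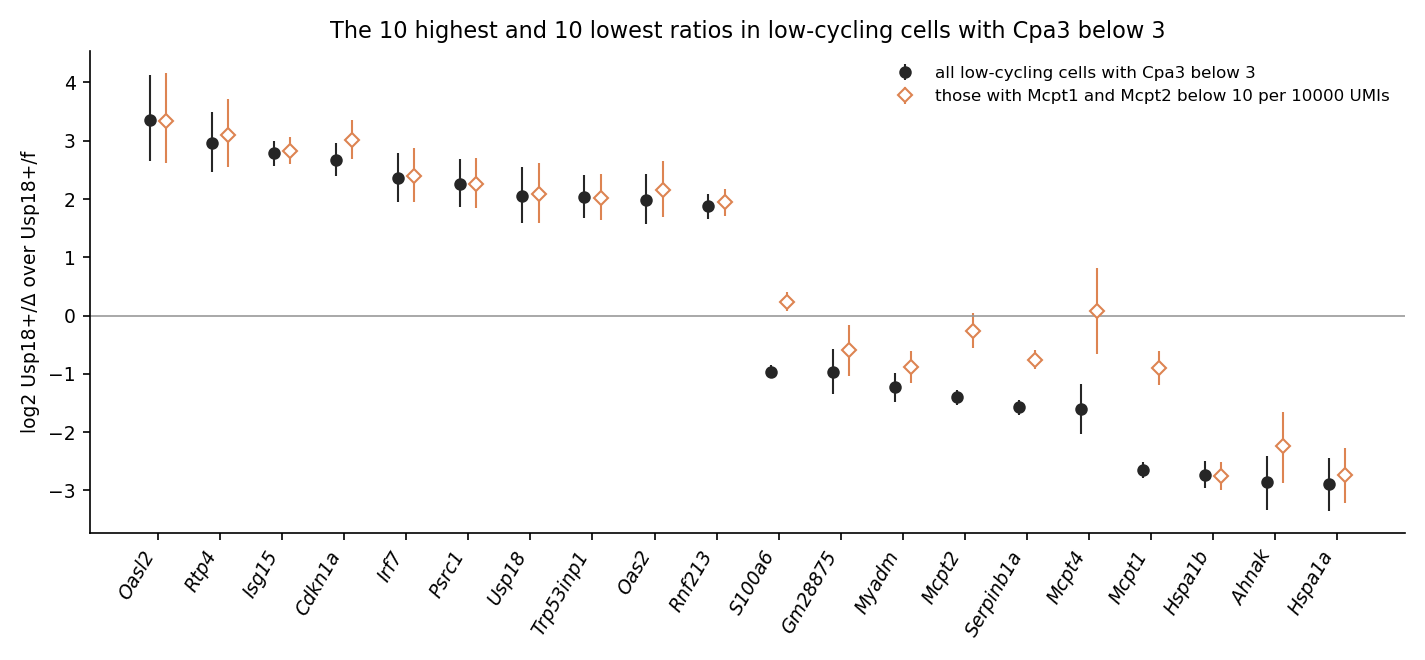
Log2 ratio between the libraries (vertical axis, Usp18+/Δ to Usp18+/f as labelled, with 95% counting intervals) for the 10 genes with the largest positive and the 10 with the largest negative ratios, in all low-cycling Cpa3-low cells and in those with Mcpt1 and Mcpt2 below 10 per 10000 UMIs. Among genes that did not define the split, Mcpt4 goes from -1.60 to 0.07 (-0.65 to 0.82), S100a6 from -0.96 to 0.24 and Cdkn1a from 2.67 to 3.01.

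Among themselves, the low-cycling Cpa3-low cells varied most in globin genes, followed by the noncoding RNA Malat1 and mast cell genes. At 3000 UMIs per cell, the variance of Hbb-bs was 139 and 171 times its mean and that of Cma1 17.6 and 12.5 times, where the median of 6067 genes was 1.03 and 1.04 and the 95th percentile 1.26 and 1.28. Mcpt1 differed between the libraries in this measure too, at 32.8 and 8.83. Malat1 was at 28.2 and 25.02. The noncoding RNA Neat1, at 7.08 and 5.03, and Ly6d, a surface antigen of lymphoid progenitors, at 5.95 and 6.05, were also among the 15 genes of widest spread. A few cells carried much of some genes: in the library labelled Usp18+/f, 1 cell held 11.3% of the Hba-a2 UMIs, and in the other library 1 cell held 10.7% of those of Mcpt2. Genes with a mean of at least 0.05 UMIs in both libraries were ranked by the smaller of the 2 libraries' values. No interferon gene or p53 target was among the 15, but this ranking leaves out genes that were uneven in 1 library only.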

How the data were processed

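The authors deposited 1 matrix of UMI counts per library, which they made with Cell Ranger (3.0.2 in the matrix header) on mm10 from a 10x Genomics V3 3′ kit, and the counts were used as deposited. Seurat is named in the submitters' processing notes without a version. The members and gene lists were chosen with earlier results of these data known. UMIs were summed per class and library and scaled to CPM (1000000 UMIs). Genes entered contrasts at a mean of 20 CPM and lists at 5 CPM, and 1.5-fold was the size counted. With 1 library per group, no test was run. Intervals were Poisson for levels, Clopper-Pearson for shares, exact conditional for ratios of UMIs and score intervals for ratios of shares, and that of a list median runs from the median of its genes' lower limits to the median of their upper limits. Named were the genes of the rule and of the lists, Usp18, Kit, Cd34, the 10 highest and 10 lowest ratios of each contrast (between classes, by the smaller ratio of both libraries) and the 15 genes of widest spread. Shares of cells were taken at 3000 UMIs, which left out 24 and 41 of the low-cycling Cpa3-low cells. Barcodes were kept whatever their doublet score. Scrublet called 0.0456% and 0.0408% of barcodes, too few to count as working, so barcodes above its 95th percentile were removed only as an alternative. Promoter windows came from a RefSeq table on GRCm38.p6. Gene IDs of all 376 named genes matched the annotation. The sums and intervals were tested on simulated data. Python 3.11.15, numpy 2.4.6, scipy 1.17.1, pandas 2.3.3, scanpy 1.11.5 and matplotlib 3.10.9 were used.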

Additional observations from a re-analysis of the deposited data

How the results depend on the processing

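Of 71 alternatives over 9 results, 60 stayed within the counting interval or within 1.5 times the count, 11 moved and none turned the direction. With 2 to 5% mitochondrial UMIs, which left 47 and 121 cells, the difference in share was 1.49, the genes 1.5-fold higher and lower were 773 and 838, the G2 and M median over both libraries was -3.36 (-4.14 in the text's setting), the ribosomal protein share ratio was 0.015 and 563 genes differed between the low-cycling classes (241 in the text's setting). Scores standardized within each library gave a difference in share of 0.16. A minimum of 5 CPM gave 291 higher genes and one of 50 CPM gave 32. The ribosomal protein share ratio was 0.072 with the score limit at -0.25 and 0.050 with each cell weighted alike, against 0.075. Cma1 turned to 0.95 at 2 to 5% mitochondrial UMIs and to 0.27 without cells high in Mcpt1 and Mcpt2, and S100a6 to 0.24 without those cells. Serpinb1a was at -0.61 at 2 to 5% mitochondrial UMIs, and Cd34 at 1.33 with Cpa3 below 10. The median was 1.06 to 1.25 for the interferon list over 15 alternatives and 0.78 to 1.10 for the p53 list over 6. Alternatives without shared barcode sequences or without cells high in Mcpt1 and Mcpt2 were chosen after seeing the data. The cause of these shifts was not tested. No paired analysis was possible because only 1 library stood on each side. The ratio of Usp18 could not be given at 2 to 5% mitochondrial UMIs, since it had 0 UMIs there under Usp18+/f. Depth limits genes under 5 CPM, and the spread between mice cannot be read from a pool.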
